A study of Drosophila melanogaster with 26 samples.

Results

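The genes of mitochondrial ribosomal proteins were taken as those whose symbol begins *mRpL* or *mRpS* followed by a digit, the names of proteins of the large and the small subunit. On the Drosophila Genome 2.0 array, 71 probe sets were listed for 1 such gene alone, and they measured 69 genes of the 11982 with a probe set of their own. *mRpL47* and *mRpS11* had 2 probe sets each and the brighter was used. The large subunit gave 44 members and the small subunit 25. *mRpS10* and *mRpL53* were on the array only through probe sets listed with a second gene, and were not counted as members.

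Mitochondria keep a small genome of their own, and its few protein-coding genes specify core subunits of the respiratory chain and of ATP synthase. These messages are translated inside the organelle by the mitochondrial ribosome, whose RNA comes from the mitochondrial genome and whose proteins are all encoded in the nucleus, made in the cytosol and imported. Many of the proteins descend from those of the bacterial ribosome and keep the bacterial number in their name, while others were added in mitochondria. Flies with reduced function of such a gene (*technical knockout*, *tko*, is the classical one) develop slowly, and the supply of respiratory chain subunits depends on these ribosomes in larval tissues that grow fast.

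RNA came from whole larvae at the partial clear-gut stage of late L3, 10 to 4 h before pupariation, kept for 6 h at 25°C either in 4% O2 (hypoxia, H-treatment) or in normoxia. The *sima* mutants were homozygous for *sima07607*, a P-element insertion in the gene of dHIFa, the oxygen-labile subunit of the fly hypoxia-inducible factor. The *dERR* mutants carried *dERR1* over *dERR2*, 2 alleles of the estrogen-related receptor, a nuclear receptor that drives carbohydrate metabolism in larvae. The double-mutants carried *sima07607* on both chromosomes with *dERR1* over *dERR2*, and the controls came from *w1118* parents. Mutant larvae were progeny of parents with a TM3,tw-GFP balancer and were picked by the absence of GFP, so stock background and mutation cannot be told apart, and both mutations act in all tissues. Each group had 3 arrays except *w1118* in hypoxia, with 5, and each array held a pool of at least 10 larvae.

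All values are log2 of the deposited array intensity, and a change is a difference of group means on that scale, so that a change of 1 is a doubling. A member was called when it changed at least 1.5-fold with an adjusted p under 0.01, and rose or fell at the 5% level when the adjusted p was under 0.05 with no minimum fold (limma across all 18769 probe sets tested). In whole larvae, less RNA per cell and fewer cells of a type cannot be told apart.

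The labels held for *sima*, which averaged 5.23 in *sima* mutants and 5.55 in double-mutants in hypoxia, against 7.86 in *w1118* in hypoxia (adjusted p = 1.76e-10 and 1.33e-09). The *ERR* probe set was lower in *dERR* mutants than in *w1118* in hypoxia by limma (-0.89, SE 0.13, adjusted p = 1.07e-04), but not in normoxia (-0.33, adjusted p = 0.140). In double-mutants it was lower in hypoxia (-0.42, adjusted p = 0.0292) and not in normoxia (0.06, adjusted p = 0.817). Replicates 4 and 5 of *w1118* in hypoxia stood apart in testis transcripts, and the summed intensity of 10 testis markers ran between 1434 and 9540 in *w1118* in hypoxia, against 7724 to 10092 in *w1118* in normoxia. The mutants in normoxia all lay below the latter, at 2829 to 3997 in *sima* mutants, 3705 to 6985 in *dERR* mutants and 2315 to 5752 in double-mutants. Array medians ran between 35.4 and 45.4 in intensity, the lowest on replicates 4 and 5 of *w1118* in hypoxia. One array of *dERR* mutants in normoxia, replicate 2, stood apart in the members themselves, as given below.

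The members were expressed at moderate and similar levels. Their mean over the 26 arrays ran between 6.57 and 9.61, with a median of 7.49, against a median of 5.45 over all probe sets tested, so that they lay between the 63.4th and the 93.5th percentile. *mRpL28* was the brightest (9.61), followed by *mRpS5* (8.92), whose bacterial counterpart sits where the messenger enters the small subunit, and *mRpL33* (8.69). *mRpL11* (6.57), counterpart of the bacterial protein at the base of the stalk that receives translation factors, was the dimmest, with *mRpL54* (6.65) and *mRpL32* (6.76) next. Levels of different genes are probe set brightness and carry no order of abundance. Within groups the members had a median SD of 0.14, against 0.19 over all probe sets, most of which are dimmer. No SD was taken over probe sets of like brightness.

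The members tended to vary together over the arrays. Over the 26 arrays the median of the pairwise correlations was 0.48, and the median correlation of a member with the median of the other 68 was 0.69. These are descriptions across arrays that also share the differences between groups. No such value was taken over other probe sets, and the part of shifts of whole arrays was not tested. *mRpL18* (0.90), *mRpL13* (0.89), *mRpS30* (0.89) and *mRpL10* (0.88) followed the rest most closely. *mRpL39* (-0.14), *mRpS5* (-0.13), *mRpL36* (0.16) and *mRpL28* (0.16) followed it least.

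The median of the 69 members on each array gives the pattern in brief. In *sima* mutants it was 7.68, 7.60 and 7.78 in hypoxia, against 7.57, 7.55 and 7.52 in normoxia. In *dERR* mutants it was 7.49, 7.38 and 7.41 in hypoxia, against 7.45, 7.90 and 7.59 in normoxia. In double-mutants it was 7.64, 7.47 and 7.51 in hypoxia, against 7.41, 7.40 and 7.47 in normoxia. Hypoxic arrays thus lay above normoxic ones in *sima* mutants, while in *dERR* mutants they overlapped. In *w1118* it was 7.36, 7.40, 7.40, 7.26 and 7.30 in hypoxia, against 7.56, 7.47 and 7.48 in normoxia, and all 5 hypoxic arrays lay below the 3 normoxic ones.

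**Figure D1:**
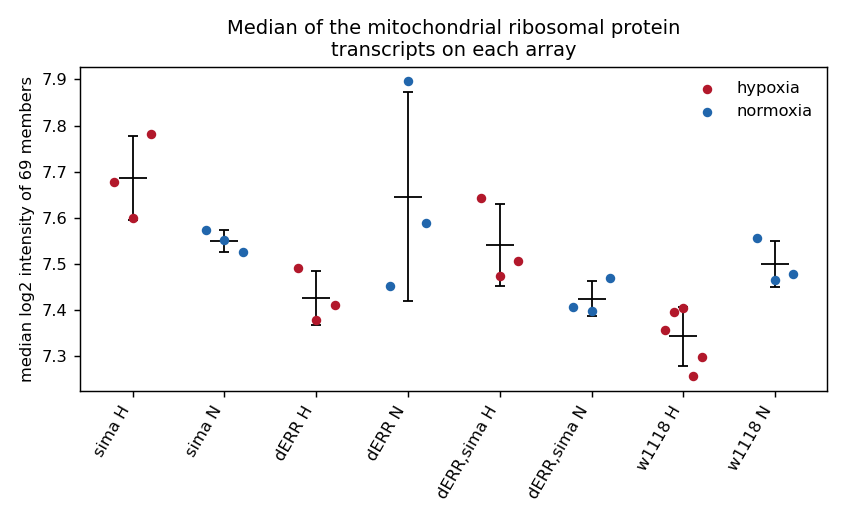
Median log2 intensity of the 69 members on each array (points), with the mean and SD of each group (bars), for *sima*, *dERR*, double-mutant and *w1118* larvae in hypoxia (H, red) and normoxia (N, blue). The 5 *w1118* H arrays (7.26 to 7.40) lie below all 3 *sima* H arrays (7.60 to 7.78), and 1 *dERR* N array (7.90) lies above every other array.

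In *w1118* larvae most members were slightly lower on H-treatment, and few passed the 1.5-fold rule. The median change was -0.19, against 0.06 over all probe sets tested, and 57 of the 69 were lower. By the 1.5-fold rule 3 members fell and 1 rose, beside 1.57% of all probe sets called lower and 3.58% called higher, 5.15% in all. With no minimum fold 20 members fell (29.0%, against 5.16% of all probe sets) and 5 rose (7.25%, against 8.21%), and 40 had an unadjusted p under 0.05 (against 30.1%). In 36 members all hypoxic arrays lay below all normoxic ones, and in 5 above, where the background was 7.56% and 13%.

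*mRpL20* fell most. Its bacterial counterpart is needed early in assembly of the large subunit. It measured 6.37, 6.43, 6.31, 6.59 and 6.55 in *w1118* in hypoxia, against 7.46, 7.03 and 7.23 in *w1118* in normoxia. Every hypoxic array lay well below every normoxic one, and the change was -0.79 (SE 0.13, 1.73-fold, adjusted p = 2.23e-04). *mRpL21*, a second large-subunit protein with a bacterial counterpart, measured 6.72, 6.77, 6.85, 6.49 and 6.54 in hypoxia, against 7.40, 7.29 and 7.31 in normoxia. These groups did not overlap either, and the change was -0.66 (SE 0.11, 1.58-fold, adjusted p = 3.55e-04).

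*mRpS18A*, one of several mitochondrial relatives of a single bacterial small-subunit protein, measured 7.38, 7.87, 7.78, 7.30 and 7.19 in *w1118* in hypoxia, against 8.10, 8.12 and 8.07 in *w1118* in normoxia. The hypoxic arrays spread widely but all lay below the tight normoxic ones, and the change was -0.59 (SE 0.14, adjusted p = 0.00549). This call was at the 1.5-fold limit and was lost without replicate 1, 4 or 5 of *w1118* in hypoxia (adjusted p between 0.0132 and 0.0152) or without any 1 of the 3 normoxic arrays.

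*mRpL28* went the other way. It measured 9.87, 9.93, 9.94, 9.79 and 9.72 in *w1118* in hypoxia, against 9.15, 9.29 and 9.11 in *w1118* in normoxia. The hypoxic arrays were all higher, by 0.66 on average (SE 0.08, 1.58-fold, adjusted p = 1.45e-05). In the RefSeq annotation its gene overlaps *Gmd*, an enzyme of GDP-fucose synthesis with a probe set of its own, which did not pass in this comparison but rose in double-mutants on H-treatment (0.83, SE 0.16, adjusted p = 0.00138). Against *w1118* in hypoxia *Gmd* was also higher in *sima* mutants (0.66, adjusted p = 0.00340) and in double-mutants (0.75, adjusted p = 0.00106), where *mRpL28* was higher as well (0.31, adjusted p = 0.0175, and 0.25, adjusted p = 0.0456). The part of the neighbour in the *mRpL28* signal was not tested. In all, 41 of the 69 members overlap another gene in that annotation.

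The other 17 members that fell at the 5% level did so by 0.31 to 0.58 on the log2 scale. Of the large subunit they were *mRpL36*, *mRpL32*, *mRpL12*, *mRpL17*, *mRpL51*, *mRpL13*, *mRpL14*, *mRpL47*, *mRpL43* and *mRpL41*. *CG10602*, which overlaps *mRpL13*, fell with it (-0.36, adjusted p = 0.0278), and its part was not tested. *mRpL12* (-0.49, adjusted p = 0.00739) is the counterpart of the bacterial stalk protein that recruits translation factors, and in flies it is needed for growth driven by Cyclin D and Cdk4. *mRpL32* (-0.54, adjusted p = 0.00185) is cut by a mitochondrial protease before it joins the ribosome in yeast and mouse. Of the small subunit they were *mRpS6*, *mRpS17*, *mRpS16*, *mRpS18C*, *mRpS33*, *mRpS14* and *mRpS21*. Beside *mRpL28*, the members that rose at this level were *mRpL39* (0.40), *mRpS28* (0.31), *mRpL38* (0.31) and *mRpS29* (0.29), the last a GTP-binding protein known in mammals as DAP3.

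Centring each array on its median raised the median change of all probe sets in *w1118* to 0.21, and that of the members to -0.05, with 40 of 69 lower and only *mRpL28* called. The distance between both medians, -0.25, cannot change under centring. It was -0.19 with quantile normalization and -0.17 among probe sets with a mean log2 intensity of at least 6. Without replicates 4 and 5 of *w1118* in hypoxia this distance was -0.16. On centred arrays 5 members fell and 6 rose at the 5% level, while scaling on the 75th percentile and quantile normalization each left 20 falls. Without replicates 4 and 5 of *w1118* in hypoxia the median change was -0.16, with 1 member called lower and 1 higher, and 13 members fell at the 5% level. The summed testis markers given above were lower in the same comparison (median change -1.20, 0 of 10 called). Midgut markers were lower too (-0.37, 2 of 9 called), with sums of 40771 to 49779 in *w1118* in hypoxia and 54132 to 64414 in *w1118* in normoxia, salivary gland markers had a median change of -0.40 (0 of 7 called), and hemocyte markers one of 1.00 (1 of 6 called higher). The part of these tissues in the members' change was not tested.

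**Figure D2:**
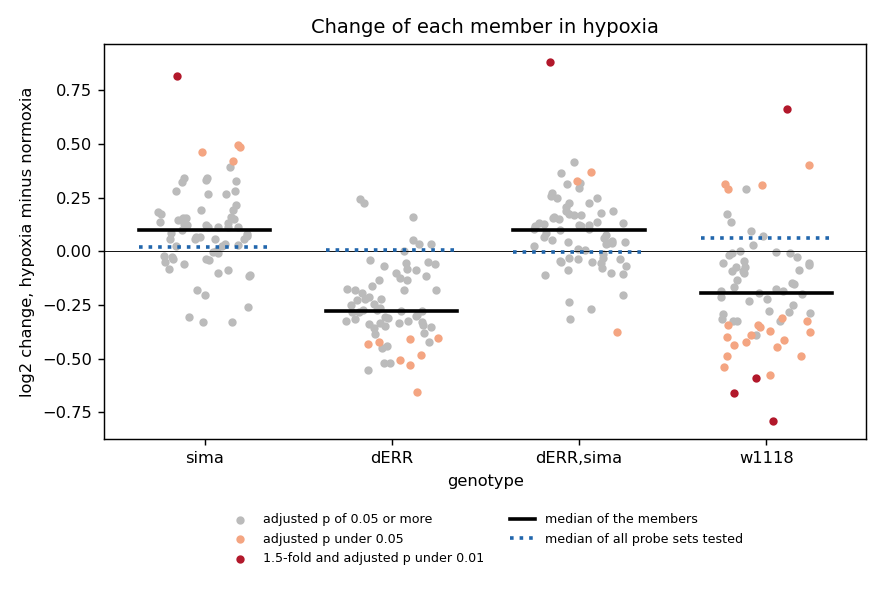
Log2 change of each of the 69 members (points), hypoxia minus normoxia, in *sima*, *dERR*, double-mutant and *w1118* larvae, coloured by the test passed, with the median of the members (black line) and of all probe sets tested (dotted line). The members' median is above 0 in *sima* mutants and double-mutants (0.10 in each) and below 0 in *dERR* mutants (-0.28) and *w1118* (-0.19), and the 1 red point high in 3 of the columns is *mRpL28*.

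In *sima* mutants most members were slightly higher in hypoxia. The median change on H-treatment was 0.10, against 0.02 over all probe sets, and 48 of 69 were higher. Only *mRpL28* was called, beside 1.85% of all probe sets called higher and 1.74% called lower, 3.6% in all. A further count, at the 5% level, gave 5 members that rose (7.25%, against 3.84% of all probe sets) and 0 that fell (against 4.3%). An unadjusted p under 0.05 was found for 19 members in either direction, against 19.2% of all probe sets. Marker lists had median changes of 0.47 in muscle (0 of 8 called) and 0.36 in hemocytes (1 of 6 called higher). Those of midgut and salivary gland were -0.30 (0 of 9 called) and -0.37 (0 of 7 called), and the other lists ran between -0.35 and 0.28. The part of these tissues was not tested.

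*mRpL28* measured 10.20, 10.16 and 10.13 in *sima* mutants in hypoxia, against 9.35, 9.34 and 9.35 in *sima* mutants in normoxia, with no overlap (0.82, SE 0.09, adjusted p = 8.25e-06). The other 4 were all of the small subunit: *mRpS26* (0.50, SE 0.14, adjusted p = 0.0307), *mRpS28* (0.49, SE 0.11, adjusted p = 0.00710), *mRpS29* (0.46, SE 0.09, adjusted p = 0.00317) and *mRpS22* (0.42, adjusted p = 0.00364). *mRpL28*, *mRpS28* and *mRpS29* were also among the 5 that rose in *w1118*. *mRpL20*, which fell in *w1118*, measured 7.57, 7.35 and 7.26 in *sima* mutants in hypoxia, against 7.54, 7.84 and 7.71 in normoxia. Its groups overlapped and its change did not pass (-0.30, adjusted p = 0.249).

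In *dERR* mutants the members were again lower in hypoxia, by a median of -0.28, against 0.01 over all probe sets, and 62 of 69 were lower. Over probe sets with a mean log2 intensity of at least 6, which include all 69 members, the median was -0.10. No member was called by limma or by SAM, beside 0.192% of all probe sets called lower and 0.197% called higher. At the 5% level 8 members fell (11.6%, against 1.25% of all probe sets) and 0 rose (against 0.687%), beside 1.93% of all probe sets in either direction, and 40 had an unadjusted p under 0.05 (against 14.6%). In 21 members all hypoxic arrays lay below all normoxic ones and in 0 above, where the background was 7.03% and 7.11%. The 8 were *mRpS35* (-0.65), *mRpL32* (-0.53), *mRpL14* (-0.51), *mRpL47* (-0.48), *mRpL52* (-0.43), *mRpS23* (-0.42), *mRpS14* (-0.41) and *mRpL51* (-0.40). 5 of the 8 (62.5%) also fell in *w1118*, where they made 25.0% of the 20 that fell.

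The falls at the 5% level depended on single arrays. Of the 69 members, 67 were highest in replicate 2 among the 3 normoxic *dERR* arrays, where the summed intensity of 8 muscle markers was also highest (37186, the others 22204 and 22672). Without it the median change was -0.14, with 54 of 69 lower, and 0 members fell at the 5% level. Without replicate 3 of *dERR* mutants in hypoxia 0 fell as well (median -0.26), and without replicate 2 of that group 1 fell. Without replicate 1 in hypoxia there were 12 falls and 1 call, and without replicate 1 in normoxia 14 falls and 2 calls (median -0.34). Centred arrays, or a fit on the 2 groups alone, gave 0 falls too. *mRpS35* measured 6.82, 6.61 and 6.58 in *dERR* mutants in hypoxia, against 7.04, 7.85 and 7.09 in normoxia. The groups did not overlap, and 1 normoxic array stood well above the other 2. The part of muscle RNA was not tested.

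*mRpL28* measured 9.55, 9.58 and 9.46 in *dERR* mutants in hypoxia, against 9.19, 9.49 and 9.17 in normoxia. One normoxic array fell inside the hypoxic range, and the change did not pass (0.25, SE 0.09, adjusted p = 0.206).

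In double-mutants, too, most members were slightly higher in hypoxia. The median change was 0.10, against 0.00 over all probe sets, and 49 of 69 were higher. Only *mRpL28* was called, beside 2.78% of all probe sets called higher and 1.94% called lower, 4.72% in all. It measured 10.26, 10.06 and 9.99 in double-mutants in hypoxia, against 9.15, 9.34 and 9.16 in normoxia, again with no overlap (0.88, SE 0.09, adjusted p = 1.80e-06). At the 5% level *mRpL28*, *mRpS22* (0.37) and *mRpS29* (0.33) rose, and *mRpS14* (-0.37) fell, shares of 4.35% and 1.45% against 4.97% and 4.83% of all probe sets (9.8% in either direction). The 3 that rose were all among the 5 that rose in *sima* mutants. Muscle markers had a median change of 0.71 in double-mutants (0 of 8 called) and hemocyte markers one of 0.68 (1 of 6 called higher). Midgut markers had one of -0.83 (2 of 9 called lower) and salivary gland markers one of -0.44 (0 of 7 called). Medians of the other lists ran between -0.52 and 0.24. The part of these tissues was not tested.

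The members kept much of their order across genotypes. Over the 69 members the hypoxic change in double-mutants and in *sima* mutants had a Pearson correlation of 0.90, and that in *sima* mutants and *w1118* of 0.75. The *dERR* mutants and *w1118* gave 0.72, and the *dERR* and *sima* mutants 0.55. These are descriptions over genes read by the same probe sets on different arrays, and carry no test. By sign, 32 of the 69 were lower in *w1118* and *dERR* mutants and higher in *sima* mutants and double-mutants, 15 were lower in all 4 genotypes and 5 were higher in all 4.

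**Figure D3:**
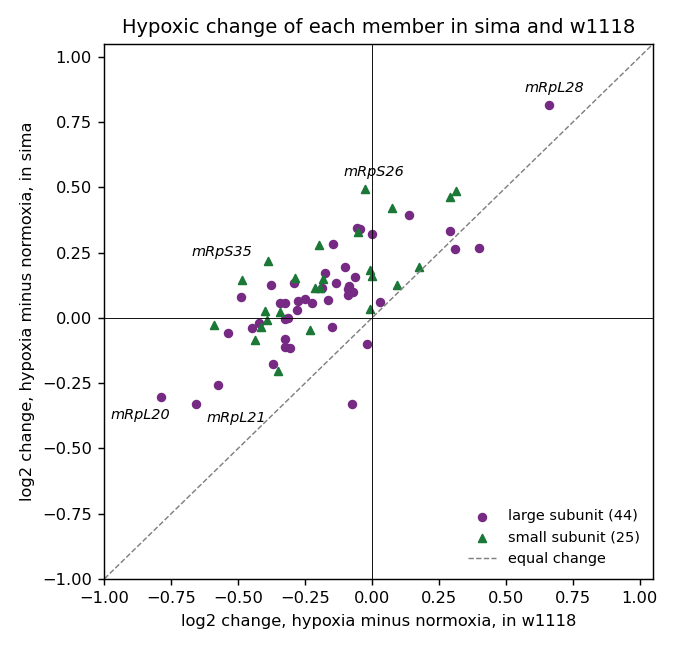
Log2 change of each member on H-treatment in *sima* mutants (vertical axis) and *w1118* (horizontal axis), large-subunit members as circles and small-subunit members as triangles, with the line of equal change. Most points lie above the line, *mRpL28* is high on both axes (0.82 and 0.66), and *mRpL20* is low on both (-0.30 and -0.79).

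Whether the response differed between genotypes was tested by the interaction, the change in the mutant minus that in *w1118*. Every interaction subtracts the same *w1118* response, so the interactions are not independent of each other. For *sima* its median over the members was 0.31, against -0.06 over all probe sets, and 65 of 69 were positive. None passed by limma at either level, although 29 had an unadjusted p under 0.05 (against 14.6% of all probe sets), where 0.314% of all probe sets were called and 0.65% passed at the 5% level. For the double-mutants the median was 0.30, against -0.08, with 60 positive, 32 at an unadjusted p under 0.05 (against 13.9%), 0 called (0.48% of all probe sets) and 1 past the 5% level (1.45%, against 1.2%). For *dERR* the median was -0.06, against -0.02, with 26 positive and 8 at an unadjusted p under 0.05 (against 9.17%), and none passed (0.107% called and 0.416% past the 5% level). Without replicate 2 of *dERR* mutants in normoxia the *dERR* median was 0.06. Centring the arrays lowered the *sima* median to 0.17 and the double-mutant median to 0.14, beside -0.20 and -0.23 over all probe sets.

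The 1 member past the 5% level was *mRpS6*, whose bacterial counterpart pairs with a neighbour on the platform of the small subunit. It measured 7.20, 6.89 and 7.05 in double-mutants in hypoxia, against 6.72, 6.95 and 6.91 in normoxia. In *w1118* it measured 6.85, 7.05, 7.07, 6.66 and 7.02 in hypoxia, against 7.37, 7.47 and 7.40 in normoxia. The groups overlapped in double-mutants and did not in *w1118*, where the fall passed (-0.49, SE 0.10, adjusted p = 0.00268). The interaction was 0.67 (SE 0.16, adjusted p = 0.0351) for the double-mutants and 0.63 (SE 0.16, adjusted p = 0.0712) for *sima* mutants. No member passed for the double-mutants on centred arrays, with scaling on the 75th percentile or quantile normalization, with the replicate block, without replicates 4 and 5 of *w1118* in hypoxia, or in 7 of the 14 fits that left out 1 array, among them each *w1118* array in normoxia. In normoxia *mRpS6* was already lower in double-mutants than in *w1118* (-0.55, adjusted p = 0.0114).

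*mRpL51*, a large-subunit protein, had the second smallest p in both these interactions, which share the *w1118* arrays. It had 0.43 for double-mutants (SE 0.12, adjusted p = 0.0750) and 0.40 for *sima* mutants (SE 0.12, adjusted p = 0.123). It fell in *w1118* (-0.42, SE 0.08, adjusted p = 6.29e-04) and in *dERR* mutants (-0.40, SE 0.09, adjusted p = 0.0160), and the change was -0.02 in *sima* mutants and 0.01 in double-mutants. For *dERR* the smallest p values belonged to *mRpS29* (-0.45, adjusted p = 0.142) and *mRpL28* (-0.42, adjusted p = 0.188), neither of which passed.

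**Figure D4:**
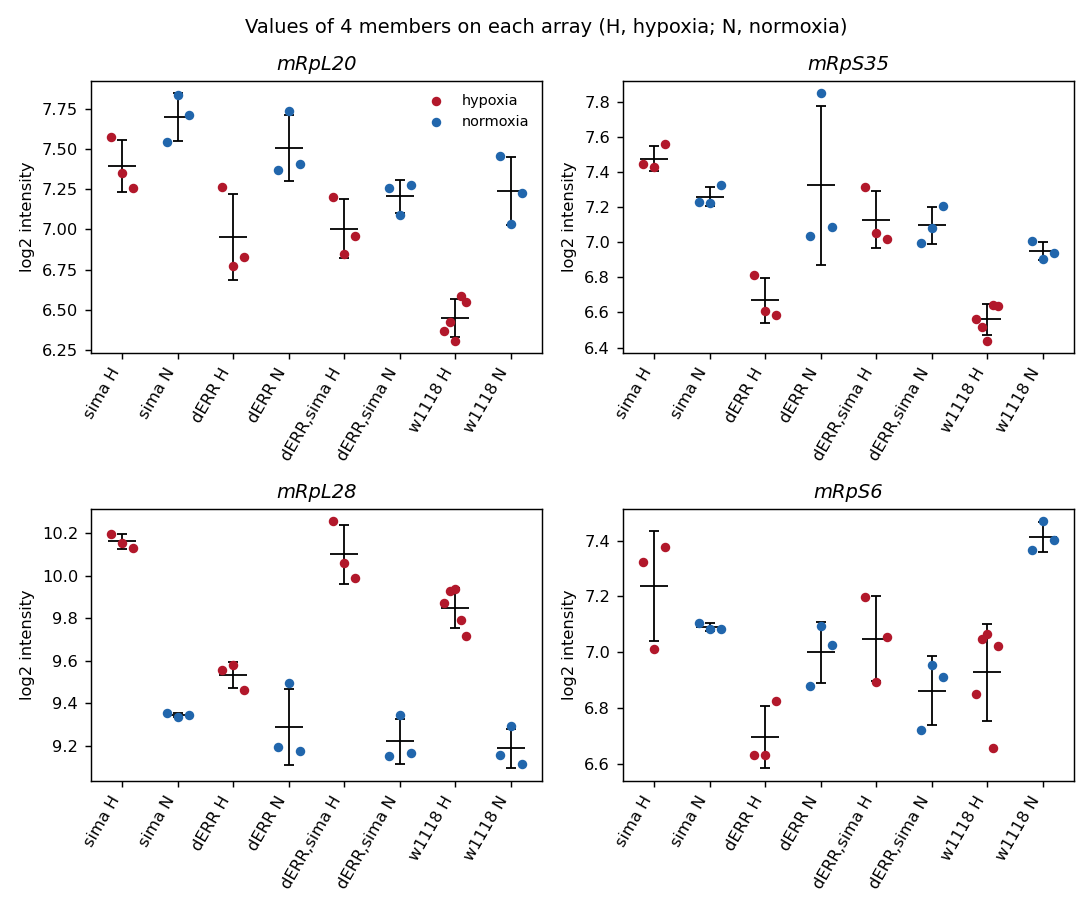
Log2 intensity of *mRpL20*, *mRpS35*, *mRpL28* and *mRpS6* on each array (points) with the group mean and SD (bars), hypoxia (H) in red and normoxia (N) in blue. *mRpL20* is lowest in *w1118* H (6.31 to 6.59), *mRpS35* is high on 1 *dERR* N array (7.85), *mRpL28* is high in H except in *dERR* mutants (9.46 to 9.58), and *mRpS6* is highest in *w1118* N (7.37 to 7.47).

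Set against *w1118* under H-treatment, the members were higher in *sima* mutants. The median difference was 0.36, against 0.01 over all probe sets, and 66 of 69 were higher. By the 1.5-fold rule 7 rose and 0 fell, beside 2.44% and 2.12% of all probe sets (4.56% in either direction). With no minimum fold 40 rose (58.0%, against 6.52%) and 0 fell (against 5.06%). In 44 members all 3 *sima* arrays lay above all 5 *w1118* arrays and in 0 below, where the background was 8.12% and 6.5%. This comparison, those of the other mutants in hypoxia given below and the response of *w1118* share the 5 hypoxic *w1118* arrays. They are not independent of each other.

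The 5 large-subunit members called were *mRpL20*, *mRpL4*, *mRpL13*, *mRpL47* and *mRpL32*. *mRpL20* measured 7.57, 7.35 and 7.26 in *sima* mutants, against 6.37, 6.43, 6.31, 6.59 and 6.55 in *w1118*, with a wide gap between the groups (0.94, SE 0.13, 1.92-fold, adjusted p = 3.87e-05). *mRpL4*, whose bacterial counterpart lines the tunnel through which the new chain leaves, measured 7.94, 7.59 and 7.89 in *sima* mutants, against 7.22, 7.23, 7.04, 7.04 and 6.98 in *w1118* (0.70, SE 0.13, adjusted p = 8.75e-04). The groups did not overlap. *CG4278*, which overlaps *mRpL4* in the RefSeq annotation, was higher too (0.31, adjusted p = 0.0482), and its part was not tested.

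*mRpL13*, counterpart of a bacterial protein that joins the large subunit early in assembly, measured 7.90, 7.78 and 7.91 in *sima* mutants, against 7.15, 7.18, 7.17, 7.29 and 7.15 in *w1118* (0.68, SE 0.11, adjusted p = 2.29e-04). *mRpL47* measured 8.79, 8.72 and 8.74 in *sima* mutants, against 8.16, 8.19, 8.14, 8.14 and 8.18 in *w1118* (0.59, SE 0.08, adjusted p = 6.63e-05). *mRpL32* measured 6.87, 6.81 and 7.09 in *sima* mutants, against 6.31, 6.46, 6.53, 6.22 and 6.18 in *w1118* (0.59, SE 0.11, adjusted p = 0.00116). None of these groups overlapped, and those of *mRpL47* were the tightest. The second probe set of *mRpL47* gave a smaller difference (0.47, adjusted p = 0.00644), under the 1.5-fold limit.

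Of the small subunit *mRpS35* and *mRpS26* were called. *mRpS35* measured 7.44, 7.43 and 7.56 in *sima* mutants, against 6.56, 6.51, 6.44, 6.64 and 6.64 in *w1118* (0.92, SE 0.13, 1.89-fold, adjusted p = 6.63e-05). *mRpS26* measured 7.82, 7.77 and 8.01 in *sima* mutants, against 7.35, 7.43, 7.28, 7.19 and 7.12 in *w1118* (0.59, SE 0.13, adjusted p = 0.00327). Neither pair of groups overlapped. The remaining 33 members past the 5% level were higher by 0.29 to 0.58, among them *mRpL28* (0.31) and *mRpS28* (0.56).

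Calls at the limit moved with single arrays. Leaving out 1 array at a time gave 5 to 12 calls, 12 of them without replicate 2 of *sima* mutants in hypoxia, and 25 to 40 rises at the 5% level. Without replicates 4 and 5 of *w1118* there were 4 calls and 25 rises at the 5% level, with *mRpL32*, *mRpL47* and *mRpS26* lost, and with a fit on the 2 groups alone 4 calls and 26 rises. The median difference stayed between 0.29 and 0.39. The muscle markers were also higher in *sima* mutants in hypoxia (median difference 0.70, 0 of 8 called). Their summed intensities were 9864 to 20804 in *sima* mutants (median 17929) and 7519 to 20931 in *w1118* (median 8195). By mean log2 of the list, replicate 1 of *w1118* stood apart at 10.60, with 9.21, 9.11, 9.07 and 9.18 on the other *w1118* arrays. The *sima* arrays had 10.32, 9.47 and 10.55. Midgut markers were higher by a median of 0.32 (0 of 9 called), with sums of 54234 to 59800 in *sima* mutants and 40771 to 49779 in *w1118*. Medians of the other marker lists ran between -0.28 and 0.01, with none called. The part of these tissues was not tested.

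In double-mutants in hypoxia the members were higher than in *w1118* by a median of 0.24, against -0.01 over all probe sets, and 62 of 69 were higher. None was called by limma or by SAM, beside 3.01% of all probe sets called higher and 3.04% called lower, 6.05% in all, and 39 had an unadjusted p under 0.05 (against 27%). With no minimum fold 21 rose (30.4%, against 6.83%) and 0 fell (against 8.65%), with differences of 0.25 to 0.57. *mRpS35* measured 7.31, 7.05 and 7.02 in double-mutants, against 6.56, 6.51, 6.44, 6.64 and 6.64 in *w1118* (0.57, SE 0.13, adjusted p = 0.00485), and *mRpL20* measured 7.20, 6.85 and 6.96 in double-mutants, against 6.37, 6.43, 6.31, 6.59 and 6.55 in *w1118* (0.55, SE 0.13, adjusted p = 0.00521). Both were higher on all 3 double-mutant arrays than on any *w1118* array. Replicate 1 of the double-mutants was the highest of its group in 58 of the 69 members. Leaving out 1 array at a time gave 5 to 22 rises at the 5% level. Muscle markers were higher in double-mutants than in *w1118* in hypoxia by a median of 0.94 (0 of 8 called). Their summed intensities were 11220 to 25101 in double-mutants (median 20268) and 7519 to 20931 in *w1118* (median 8195). In the same comparison 1 of 9 midgut markers was called higher and 1 of 5 neuron markers lower. The part of these tissues was not tested.

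In *dERR* mutants in hypoxia members differed from *w1118* in both directions. The median difference was 0.11, against 0.01 over all probe sets, with 46 of 69 higher. Over probe sets with a mean log2 intensity of at least 6, the median was -0.12. None was called by limma, with 24 at an unadjusted p under 0.05 (against 31.9%) and 0 called by SAM, beside 2.4% of all probe sets called higher and 3.77% called lower, 6.16% in all. Past an adjusted p of 0.05, 6 rose (8.70%, against 6.82%) and 4 fell (5.80%, against 12.0%). All *dERR* arrays lay above all *w1118* arrays in 14 members and below in 5, where the background was 5.94% and 11.2%. *mRpS28* (0.51, SE 0.10, adjusted p = 0.00157), *mRpL20* (0.50, SE 0.13, adjusted p = 0.00947), *mRpS14*, *mRpL2*, *mRpL43* and *mRpS22* rose. *mRpL39* (-0.47, adjusted p = 0.00179), *mRpS5* (-0.38, SE 0.09, adjusted p = 0.00411), *mRpL52* and *mRpL28* fell. Scaling the arrays on their 75th percentile raised the median difference to 0.22 and gave 2 calls. Muscle markers were higher in this comparison by a median of 1.26 (1 of 8 called). Their sums were 20796 to 25682 in *dERR* mutants (median 20902) and 7519 to 20931 in *w1118* (median 8195). Midgut markers were higher by 0.65 (5 of 9 called), with sums of 62877 to 75280 in *dERR* mutants and 40771 to 49779 in *w1118*, and 1 of 5 neuron markers was called lower. Their part was not tested.

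*mRpL28* in this comparison measured 9.55, 9.58 and 9.46 in *dERR* mutants, against 9.87, 9.93, 9.94, 9.79 and 9.72 in *w1118*. Every *dERR* array was lower (-0.32, SE 0.08, adjusted p = 0.0121), while the *sima* mutants (0.31, adjusted p = 0.0175) and double-mutants (0.25, adjusted p = 0.0456) were higher than *w1118*.

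**Figure D5:**
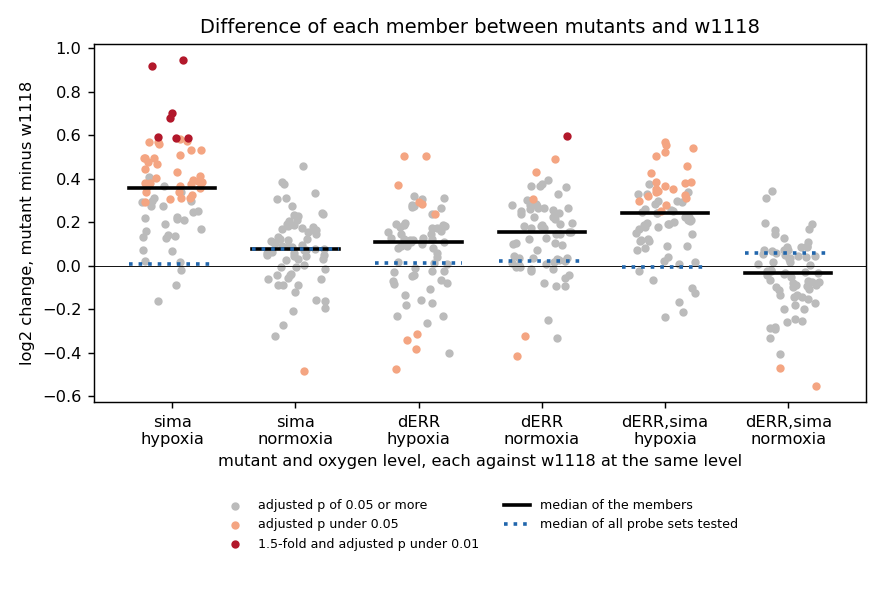
Log2 difference of each member (points) between *sima*, *dERR* or double-mutant larvae and *w1118* at the same oxygen level, hypoxia left of normoxia for each mutant, with the median of the members (black line) and of all probe sets tested (dotted line). In hypoxia the members' median is 0.36 in *sima* mutants, 0.11 in *dERR* mutants and 0.24 in double-mutants, and in normoxia it is 0.08, 0.15 and -0.03.

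In normoxia few members passed in any mutant. In *sima* mutants the median difference was 0.08, against 0.07 over all probe sets. None of the members was called by limma or SAM (0.943% of all probe sets higher and 0.522% lower), 11 had an unadjusted p under 0.05 (against 22.7%), and at the 5% level 0 rose (2.24%) and 1 fell (1.45%, against 1.39%), *mRpL36* (-0.48, adjusted p = 0.0281). In double-mutants the median was -0.03, against 0.06, with none called by limma or SAM (0.495% higher and 0.4% lower), 11 at an unadjusted p under 0.05 (against 20.7%), and 0 rises (1.44%) and 2 falls (2.90%, against 1.02%) at the 5% level, *mRpS6* and *mRpL36* (-0.47, adjusted p = 0.0429). Centring the arrays turned the double-mutant median to 0.12, beside 0.21 over all probe sets. Over probe sets with a mean log2 intensity of at least 6, the median difference was 0.04 in *sima* mutants and -0.03 in double-mutants. Testis markers in normoxia were lower than in *w1118* by a median of -1.34 in *sima* mutants, -0.69 in *dERR* mutants and -1.12 in double-mutants. In each, 0 of 10 were called, and their part was not tested.

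In *dERR* mutants in normoxia the median difference was 0.15, against 0.02, and 55 of 69 were higher. Over probe sets with a mean log2 intensity of at least 6, the median was -0.08. 1 member was called higher (beside 1.48% of all probe sets) and 0 lower (0.805%), and at the 5% level 4 rose (5.80%, against 5.44%) and 2 fell (2.90%, against 3.73%). The call was *mRpS28*, a small-subunit protein, which measured 7.26, 7.70 and 7.67 in *dERR* mutants, against 7.03, 6.89 and 6.93 in *w1118*. The groups did not overlap, and the difference was 0.59 (SE 0.11, 1.51-fold, adjusted p = 0.00256). *mRpS29* (0.49, SE 0.09, adjusted p = 0.00315), *mRpS14* (0.43) and *mRpL38* (0.31) rose, and *mRpS6* (-0.41, adjusted p = 0.0306) and *mRpS5* (-0.32, adjusted p = 0.0404) fell. Without replicate 2 of *dERR* mutants in normoxia the median difference was 0.01, and *mRpS28* was no longer called (0.51, adjusted p = 0.0280). The call was also lost without replicate 3 of that group or replicate 2 or 3 of *w1118* in normoxia (adjusted p between 0.0124 and 0.0200). Muscle markers were higher here as well, by a median of 1.55, with 2 of 8 called.

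Both subunits had similar medians. On H-treatment of *w1118* the median change was -0.18 in the 44 large-subunit members and -0.20 in the 25 small-subunit members, with 12 and 8 falls at the 5% level. Between *sima* mutants and *w1118* in hypoxia it was 0.35 and 0.37, with 25 and 15 rises. Divided by the number in the symbol, 40 members carry numbers used for bacterial ribosomal proteins and 29 higher numbers, although some of those with higher numbers, *mRpL47* and *mRpS24* among them, are related to bacterial proteins of other names. On H-treatment of *w1118* the median change was -0.24 in the 40, with 15 falls and 1 rise at the 5% level, and -0.15 in the 29, with 5 falls and 4 rises. In *sima* mutants 4 of the 5 rises were among the 12 small-subunit members with higher numbers. No difference between classes was tested.

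The variation of single members over the 8 groups was modest, with a range of group means between 0.18 (*mRpL40*) and 1.25 (*mRpL20*). *mRpL28* (0.98), *mRpS35* (0.92), *mRpS28* (0.87) and *mRpL11* (0.81) followed. *mRpL11* passed in none of the comparisons. It measured 6.55, 6.06 and 5.81 in *dERR* mutants in hypoxia, against 6.61, 7.05 and 6.32 in normoxia (-0.52, SE 0.19, adjusted p = 0.190), and its arrays spread more within groups (SD 0.24) than those of *mRpL28* (SD 0.10). *mRpL33* and *mRpL54* stayed within 0.46 over the group means.

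Other proteins of mitochondrial translation were read beside the members, from lists chosen with earlier results of these data known. Of 11 measured translation factors and ribosomal proteins under other names, 10 were lower in *w1118* on H-treatment (median -0.23), but 0 were called and only *tko*, the homologue of a bacterial small-subunit protein, fell at the 5% level (-0.48, adjusted p = 0.0278). Between *sima* mutants and *w1118* in hypoxia 2 of the 11 were called higher, *mEFTu1*, which brings charged tRNA to the ribosome (0.76, SE 0.11, adjusted p = 7.18e-05), and *mEFG1*, which moves it along the messenger (0.65, SE 0.12, adjusted p = 9.33e-04). *mEFTu1* measured 8.76, 8.67 and 8.74 in *sima* mutants, against 8.08, 8.01, 7.89, 7.99 and 7.86 in *w1118*, with no overlap. It was also called in double-mutants against *w1118* in hypoxia (0.66, adjusted p = 2.83e-04).

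*CG4866* was not a member by its symbol on the array. RefSeq gives *mRpS4* among its older names, but nothing read here places its product in the mitochondrial ribosome. It measured 6.30, 6.28, 6.10, 6.39 and 6.32 in *w1118* in hypoxia, against 7.39, 7.16 and 7.13 in normoxia. *CG4866* was called lower there (-0.95, SE 0.10, adjusted p = 8.67e-07). It was also called lower in *dERR* mutants on H-treatment (-0.67, adjusted p = 0.00223), and higher in double-mutants than in *w1118* in hypoxia (0.62, adjusted p = 1.53e-04). The probe set shared by *mRpS10* and *CG34316* fell in *w1118* too (-0.79, SE 0.14, adjusted p = 4.14e-04), and which of both genes it read cannot be told. That shared by *mRpL53* and *CG33155* did not pass (-0.27, adjusted p = 0.0666).

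Of 14 mitochondrial aminoacyl-tRNA synthetases, which charge the tRNAs these ribosomes use, *PheRS-m* alone was called in *w1118*, where it rose (0.61, SE 0.09, adjusted p = 9.92e-05). It was lower in double-mutants than in *w1118* in hypoxia (-0.74, SE 0.09, adjusted p = 1.42e-05), and in *sima* mutants (-0.58, SE 0.09, adjusted p = 2.18e-04), opposite in direction to the members. The list's median change on H-treatment of *w1118* was -0.10. Of 11 genes of mitochondrial DNA upkeep and transcription, *PolrMT*, the polymerase that makes the mitochondrial ribosomal RNA, was called. It measured 7.05, 6.53 and 7.16 in *sima* mutants in hypoxia, against 5.58, 5.70 and 5.81 in normoxia, with no overlap (1.21, SE 0.16, adjusted p = 5.07e-05). It rose in double-mutants too (1.12, SE 0.16, adjusted p = 8.93e-05), and its change in *w1118* did not pass (0.31, adjusted p = 0.161).

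Among 4 measured regulators of mitochondrial content, *ewg*, the fly relative of NRF1, was lower than in *w1118* in hypoxia in *sima* mutants (-0.67, SE 0.16, adjusted p = 0.00622) and in double-mutants (-0.79, SE 0.16, adjusted p = 0.00146). Oxidative phosphorylation subunits were listed by symbol, 75 in all. They include genes such as *COX4L* and *ATPsynbetaL*, whose symbol adds an L to that of a subunit. Of the 75, 0 were called in *w1118* on H-treatment (median -0.17). In *sima* mutants against *w1118* in hypoxia 0 were called and 8 rose at the 5% level (median 0.33). Of 34 cytosolic ribosomal proteins 0 were called in any of the 10 comparisons, and the median was 0.07 in *w1118* on H-treatment and -0.03 in *sima* mutants against *w1118* in hypoxia. No difference between these lists and the members was tested.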

How the data were processed

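RNA of 26 whole-larva samples in 8 groups was read on Affymetrix Drosophila Genome 2.0 arrays. The deposited table holds intensities that the authors made with RMA, on a linear scale. They were taken to log2. After 183 array controls were left out, 18769 probe sets were fitted with limma 3.58.1 (R 4.3.3) in 1 model of 8 groups, and p-values were adjusted by Benjamini-Hochberg over all of them. Sources used here name neither the version of RMA nor a joint normalization of the arrays. Precision is limited by 3 to 5 arrays a group. Genes were named from the platform annotation, and 402 probe sets listed for several genes and 4903 listed for none were not named. The replicates are labelled biological. The study's comparison tables were not used. The test, checked on simulated data, was repeated with SAM, other scalings, filters and sample choices.

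Members and lists were chosen with earlier results of these data known. Named members are those called in any of 10 comparisons, the 3 brightest and 3 dimmest, the 5 of widest range, and 2 for each interaction. Members that passed only the 5% level, *CG4866*, *tko* and the members named for their correlation with the rest or for the narrowest range were named after their values were seen. No sequences are shown.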

Additional observations from a re-analysis of the deposited data

Results flagged for a closer look

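*mRpL13* was 7.29 in *w1118* in hypoxia replicate 4, while the other 4 arrays of that group lay between 7.15 and 7.18. The gap as a share of the range of the 5 values was over Dixon's 95% limit of 0.71. Of the 18 named members tested in this group it alone passed the limit, and of all 69 members 7 did, where chance gives about 1 in 20.

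The response of *mRpS6* to H-treatment differed between double-mutants and *w1118* by 0.67 (interaction, adjusted p = 0.0351 by limma across all probe sets). No member passed this interaction under any of the 3 other scalings, with the replicate block, without replicates 4 and 5 of *w1118* in hypoxia, or in 7 of the 14 fits without 1 array.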

How the results depend on the processing

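Counts of called members stayed within 1.5 times of the value reported in 182 repeats and moved further in 27. A count of 0 that stayed 0 is among the 182. That held for every repeat of the interactions and of *sima* mutants and double-mutants against *w1118* in normoxia. The 182 therefore say less of the counts above 0. No called member changed direction. Among the medians, that of double-mutants against *w1118* in normoxia (-0.03) ran between -0.07 and 0.12, and the *dERR* interaction (-0.06) between -0.18 and 0.06. Centring the arrays on their median left 1 call in *w1118* on H-treatment, against 4, and gave 2 in *dERR* mutants against *w1118* in normoxia, against 1. A fit on the 2 groups alone gave 0 calls in double-mutants on H-treatment, 4 in *sima* mutants against *w1118* in hypoxia (7 reported) and 0 in *dERR* mutants against *w1118* in normoxia, where SAM also gave 0. Scaling on the 75th percentile gave 2 calls in *dERR* mutants and 2 in double-mutants against *w1118* in hypoxia, where 0 were reported, and quantile normalization gave 2 and 1. Without replicates 4 and 5 of *w1118* in hypoxia, there were 2 calls in *w1118* on H-treatment, 4 in *sima* mutants and 2 in double-mutants against *w1118* in hypoxia. These 3 settings (75th percentile, quantile, both replicates left out) were chosen after seeing the data. The cause of these moves was not tested.

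Leaving out 1 replicate at a time gave 3 to 5 calls in *w1118* and 0 to 2 in *dERR* mutants on H-treatment, 5 to 12 in *sima* mutants and 0 to 2 in double-mutants against *w1118* in hypoxia, and 0 to 1 in *dERR* mutants against *w1118* in normoxia. The call of *mRpS18A* was lost in 6 of 8 such repeats. *mRpL32* and *mRpS26* in *sima* mutants were lost in 4 each, and *mRpL47* in 3. *mRpS28* in *dERR* mutants in normoxia was lost in 4 of 6.

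Of 30 pairs of same-numbered replicates, 11 had deviations with a correlation over 0.1 (-0.53 to 0.52), and in 0 comparisons all 3 did. Against *w1118* in hypoxia the 3 were 0.02, 0.23 and 0.35 for *sima* mutants and 0.52, 0.09 and 0.51 for double-mutants. For *dERR* mutants they were 0.09, -0.28 and -0.12. Such values do not settle whether same-numbered replicates belong together. With the replicate block there were 2 calls in *w1118* on H-treatment, 3 in *sima* mutants and 1 in double-mutants against *w1118* in hypoxia. Replicates 4 and 5 of *w1118* have no partner of their number, so the block takes them out of these differences.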
